A study of Homo sapiens with 24 samples.

Results

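E7107, a pladienolide derivative that binds the SF3b complex, was compared with its solvent DMSO in HCT116 cells carrying wild-type (WT) PHF5A. The comparison takes 12 of the 24 samples of the series, 6 labelled E7107 PHF5A WT and 6 labelled DMSO PHF5A WT. HCT116 is a human colorectal carcinoma line, and both groups had been made to overexpress a WT PHF5A cDNA from a lentiviral vector, so the DMSO samples carry it too and the endogenous gene is still present. Polyadenylated RNA was sequenced after 6 h of treatment, and the labels give no dose. The labels do not say whether the 6 samples of a group were separate cultures, so the p-values measure the spread between these samples.

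SF3b is the part of the U2 small nuclear ribonucleoprotein (snRNP) that settles on the branch point of an intron, where the branch adenosine bulges into a pocket lined by SF3B1 and PHF5A. Pladienolides occupy that pocket. An intron whose branch point is not recognised can be left in the RNA (intron retention), or its 3' splice site can be passed over so that the upstream exon is joined to a later one (exon skipping). A 3' splice site consists of a branch point, a pyrimidine-rich stretch and a terminal AG, and a 5' splice site of a GT at the start of the intron with a few conserved bases around it.

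The measure is percent spliced in (PSI): at 1 splice site, the share of reads that use a given junction, or that run straight across the exon-intron boundary, out of all reads at that site. Each sample has 1830076 rows, of which 591143 are boundaries and 1238933 are spliced junctions. A site whose rows sum to 0 has no reads and was treated as missing. A test needed reads at the site in each of the 12 samples and, in E7107 or in DMSO, 6 samples with PSI over 0. That left 352424 rows, or 238600 junctions and boundaries, and one that passed only through the group in which it was high had to differ.

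The splice sites and exons that the results below turn on are shown first. MCL1, an anti-apoptotic member of the BCL2 family, has 2 introns, and both responded. The lines give sequence from GRCh37, 5' to 3' on the strand of the gene, with the GT or AG at the end of the intron in capitals.
MCL1 intron 1 5' splice site, chr1:150551305-150551324, minus strand: tccaagGTaagggggttcat
MCL1 intron 1 3' splice site, chr1:150550962-150551011, minus strand: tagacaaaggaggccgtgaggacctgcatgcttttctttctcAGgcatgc
MCL1 intron 2 5' splice site, chr1:150550706-150550725, minus strand: ggctggGTaagtttgcctta
MCL1 intron 2 3' splice site, chr1:150549962-150550011, minus strand: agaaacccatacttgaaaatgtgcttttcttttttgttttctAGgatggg
The exon between them, exon 2, is the one that was skipped. It is given in capitals with 10 intron bases on either side in lower case.
MCL1 exon 2, chr1:150550710-150550977, minus strand: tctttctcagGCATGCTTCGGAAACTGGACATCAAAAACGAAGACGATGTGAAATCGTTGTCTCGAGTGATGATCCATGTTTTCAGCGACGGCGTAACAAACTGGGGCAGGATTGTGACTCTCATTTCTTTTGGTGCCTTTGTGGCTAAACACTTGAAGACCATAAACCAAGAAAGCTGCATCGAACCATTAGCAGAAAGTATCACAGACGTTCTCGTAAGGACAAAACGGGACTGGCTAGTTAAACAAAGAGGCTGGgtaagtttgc

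Next come the 3' splice sites of introns with the largest rises in PSI among those with an SD under 5 points in both groups, at most 1 per gene. Each line ends with 6 exon bases.
MAFK intron 2 3' splice site, chr7:1579533-1579582, plus strand: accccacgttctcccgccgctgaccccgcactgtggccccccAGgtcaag
PPAN intron 3 3' splice site, chr19:10218436-10218485, plus strand: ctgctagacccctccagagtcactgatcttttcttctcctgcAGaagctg
ARHGEF5 intron 8 3' splice site, chr7:144069732-144069781, plus strand: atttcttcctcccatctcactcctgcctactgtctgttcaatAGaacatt
REXO4 intron 1 3' splice site, chr9:136280126-136280175, minus strand: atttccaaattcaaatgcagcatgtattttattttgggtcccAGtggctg
NR1H2 intron 6 3' splice site, chr19:50882215-50882264, plus strand: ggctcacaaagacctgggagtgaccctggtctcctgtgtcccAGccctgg
PER1 intron 10 3' splice site, chr17:8051140-8051189, minus strand: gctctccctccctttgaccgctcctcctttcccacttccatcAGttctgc
A further one of these, in NR1D1, is short enough to print whole, and is set beside an intron of nearly the same length in SF3B1 that stayed almost fully spliced.
NR1D1 intron 3, chr17:38252841-38252943, minus strand: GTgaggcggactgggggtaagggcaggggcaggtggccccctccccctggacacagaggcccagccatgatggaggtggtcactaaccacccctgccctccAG
SF3B1 intron 15, chr2:198266613-198266708, minus strand: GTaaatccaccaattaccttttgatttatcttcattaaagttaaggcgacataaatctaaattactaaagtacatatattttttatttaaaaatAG
The single exon with the largest rise in skipping under the same limit on SD was exon 4 of PRCC. The exon is in capitals, with 20 intron bases on either side.
PRCC exon 4, chr1:156761469-156761604, plus strand: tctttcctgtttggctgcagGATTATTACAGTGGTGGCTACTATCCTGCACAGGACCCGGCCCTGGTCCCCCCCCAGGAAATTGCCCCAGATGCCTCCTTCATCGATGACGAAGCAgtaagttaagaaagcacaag

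Across the transcriptome, retention rose and normal junctions lost usage. The mean boundary PSI per sample ran from 6.37% to 6.75% with a median of 6.40% under DMSO, and from 16.9% to 19.4% with a median of 18.4% under E7107. The groups were far apart, although 1 DMSO library, replicate 1, lay above the other 5. The difference was 11.8 percentage points between 6.45% ± 0.144 and 18.3% ± 0.889 (SD, n = 6 per group; 2-sided exact permutation test, p = 0.002165, the smallest that 6 against 6 can give). Reference junctions, which join neighbouring exons of the reference transcript of a gene, fell from 92.9% ± 0.135 to 80.9% ± 0.808 (exact permutation test, p = 0.002165, n = 6 per group). The plot of mean PSI by kind of row shows all 12 samples for these and for the rarer kinds of junction.

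**Figure D1:**
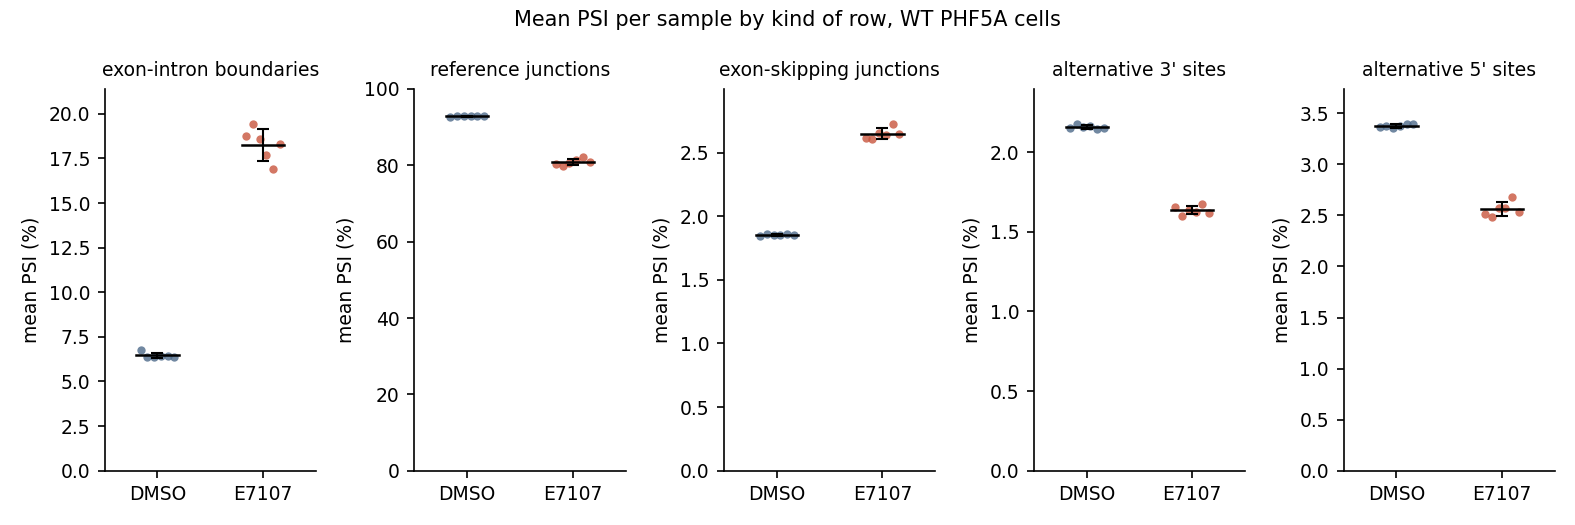
Mean PSI (%) per sample for exon-intron boundaries, reference junctions, exon-skipping junctions and alternative 3' and 5' splice site junctions, with DMSO samples in blue, E7107 samples in red, a line at the group mean and bars of 1 SD (n = 6). Boundaries and exon skipping were higher under E7107, from 6.45% to 18.3% and from 1.85% to 2.65%, while reference junctions and both kinds of alternative site were lower, and no pair of groups overlapped.

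Of the 238600 junctions and boundaries, limma called 87987 raised (36.9% of those tested) and 66455 lowered (27.9%) at a Benjamini-Hochberg adjusted p of 0.05 or less. Most of what rose was retention: 75808 of 107055 tested boundaries were raised (70.8%) and 6189 were lowered (5.78%), with a median rise of 20.6 points among those raised. Boundaries with reads in all 12 samples numbered 206147. Those at 0 in any DMSO sample could be tested only through their E7107 level, and their number among the raised was not counted. The shares raised thus depend on the filter, and the counts of raised introns below share this limit. Both sides of the intron took part, since 36381 of 48167 boundaries at reference 5' splice sites rose and 35797 of 49767 at reference 3' splice sites. Conversely, 50698 of 99684 reference junctions were lowered, and these fell by a median of 19.9 points, and 6713 were raised. Among the lowered reference junctions, 8211 lost 50 points or more.

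Exon skipping also rose, but on a smaller scale. The mean PSI of exon-skipping junctions ran from 1.85% to 1.86% under DMSO and from 2.61% to 2.73% under E7107. No sample of either group reached the range of the other. The rise was 0.794 points and 1.43-fold (exact permutation test, p = 0.002165, n = 6 per group), set against 2.83-fold for boundaries. Of 11468 exon-skipping junctions tested, 3984 were raised (34.7%) and 1797 lowered, which is close to the 36.9% raised among all junctions and boundaries. The raised ones lay in 2165 genes, 1558 of them rose by 10 points or more and 79 by 50 points or more, and 1447 (36.3%) were listed at 0 in every DMSO sample.

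The more exons a junction passed over, the larger the share that rose: 28.96% of 8613 junctions skipping 1 exon, 42.9% of 1764 skipping 2, and 67.3% of 1091 skipping 3 or more. Of the raised junctions in these classes 638, 320 and 489 were listed at 0 in every DMSO sample and were tested only because of their E7107 level. Raised junctions at 0 in only some DMSO samples entered the same way and are not in these numbers. The shares thus depend on the filter, as do those by frame and exon length below, and are a description. Among single exons, skipping was raised for 34.5% of 4350 whose length would shift the reading frame and for 23.3% of 4255 whose length is a multiple of 3. Of the raised ones, 425 and 213 were listed at 0 in every DMSO sample. By exon length, 30.8% were raised under 80 bases and 24.3% at 160 bases or more. Of the genes with raised skipping that were also tested for retention, 1948 of 2116 (92.1%) had raised retention, compared with 4194 of 5382 (77.9%) of all genes in which both were tested. These 1948 genes made up 28.7% of the genes with raised retention.

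Alternative splice sites within 100 bases of the reference site went the other way. Their mean PSI fell from 2.16% ± 0.0114 to 1.64% ± 0.0264 for 3' sites and from 3.38% ± 0.0159 to 2.56% ± 0.0669 for 5' sites (SD, n = 6; exact permutation test, p = 0.002165 for each). Of 3239 alternative 3' site junctions, 84 were raised and 1081 lowered, and of 2005 alternative 5' site junctions 87 were raised and 744 lowered. At a splice site the rows share 1 total, so a rise of the boundary row lowers the sum of the other rows of that site. An individual row can still rise, as the junction that skips exon 2 of MCL1 did. The part of the shared total in the fall of alternative sites was not tested.

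At MCL1, retention and skipping appeared side by side. PSI of intron 1, the mean of its 2 boundaries, ran from 2.22% to 4.13% with a median of 3.36% under DMSO and from 72.2% to 76.5% with a median of 75.4% under E7107. Intron 2 went from between 1.72% and 4.51% (median 2.69%) to between 72.2% and 75.6% (median 73.3%). All 6 treated samples thus sat within a few points of each other and far above every control (limma, adjusted p = 6.8e-10 and 1.2e-10 at the 5' and 3' boundary of intron 1, and 3.0e-10 and 3.1e-10 for intron 2). The 2 boundaries stood at different levels under E7107. Group means were 59.9% at the 5' and 89.65% at the 3' boundary of intron 1, and 88.4% and 58.9% for intron 2. Reads that skip exon 2 count in the totals at the 5' site of intron 1 and the 3' site of intron 2. They do not count at the sites next to exon 2, so the 2 boundaries of an intron are shares of different totals. The junction that leaves out exon 2, whose 248 bases are printed above, ran from 0.273% to 1.81% (median 1.25%) under DMSO and from 28.2% to 37.3% (median 33.1%) under E7107, a log odds rise of 3.23 ± 0.17 (SE; adjusted p = 9.1e-09). Loss of exon 2 is known to give the short MCL1 isoform, which lacks the membrane anchor.

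Other genes that the study singled out differed in size of response. RBM5, an RNA-binding splicing regulator, had a mean boundary PSI between 6.07% and 6.84% (median 6.29%) under DMSO and between 59.5% and 68.0% (median 64.9%) under E7107. All 24 of its introns were raised at both boundaries, although boundaries of 6 of them lie in exons of other genes and were left out of the gene's mean. Introns 1, 2, 3, 10, 12, 13, 18 and 21 were at 0% in at least 1 DMSO sample. These were tested only because of their E7107 level, so their calls are a description. The PSI of an intron is the mean over both boundaries, so introns with a single boundary at 0% in a DMSO sample are not listed. Such boundaries also entered only through their E7107 level and were not counted. The groups were far apart (change of 58.5 points; limma, adjusted p = 1.0e-13).

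CDC25B, a phosphatase that activates cyclin-dependent kinases, rose in all 15 introns. Introns 7 and 10 were at 0% in at least 1 DMSO sample and were tested only because of their E7107 level. As for RBM5, introns with a single boundary at 0% were not counted. The mean boundary PSI of CDC25B was between 2.34% and 3.43% (median 2.55%) under DMSO and between 31.9% and 35.4% (median 33.1%) under E7107. EIF4A1, the RNA helicase of the translation initiation factor eIF4F, stayed between 0.701% and 0.810% (median 0.788%) under DMSO and reached 21.9% to 24.6% (median 23.6%) under E7107. In both genes the 12 samples fell into separate groups with a wide gap (change of 30.6 points and adjusted p = 2.7e-13 for CDC25B, 22.6 points and 1.5e-14 for EIF4A1).

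CDK10, a kinase of the cyclin-dependent family, started from a high level, between 23.6% and 28.4% (median 27.3%), and reached 47.4% to 50.8% (median 49.8%). Only 9 of its 12 introns were raised at both boundaries: introns 7 and 8 were at 77.4% and 62.4% under DMSO and at 74.8% and 57.3% under E7107, and neither passed the test at either end. In CDC25B the junction that skips exon 6 was lowered, from 35.04% ± 5.00 to 18.4% ± 5.47 (SD, n = 6; limma, adjusted p = 6.9e-04).

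Genes of the drug's own target complex ranged from no detectable change to a large one. PHF5A ran from 0.166% to 0.313% (median 0.243%) under DMSO and from 0.244% to 0.294% (median 0.262%) under E7107, and the groups overlapped (change of 0.024 points; limma, adjusted p = 0.64), and none of its 3 introns passed at either boundary. The overexpressed cDNA has no introns, so its reads and those of the endogenous gene cannot be told apart at exon-exon junctions. Those reads count as spliced and lower the boundary PSI of PHF5A in both groups, so its value does not measure the endogenous gene alone. SF3B1 rose from between 0.557% and 0.784% (median 0.676%) to between 3.10% and 4.67% (median 3.71%), without overlap (adjusted p = 5.4e-09), and 21 of its 24 introns were raised at both boundaries. Of the other 3, intron 4 passed at neither end, with 7.35% ± 1.11 under DMSO and 6.69% ± 1.88 under E7107. Of 13 genes of SF3a, SF3b and the U2 snRNP that were tested, 12 were raised, with a median change of 4.72 points over the 13, compared with 5.85 over all genes. SF3A2 rose by 49.9 points, SF3A1 by 22.2, SF3B3 by 17.6 and SF3B2 by 9.75.

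**Figure D2:**
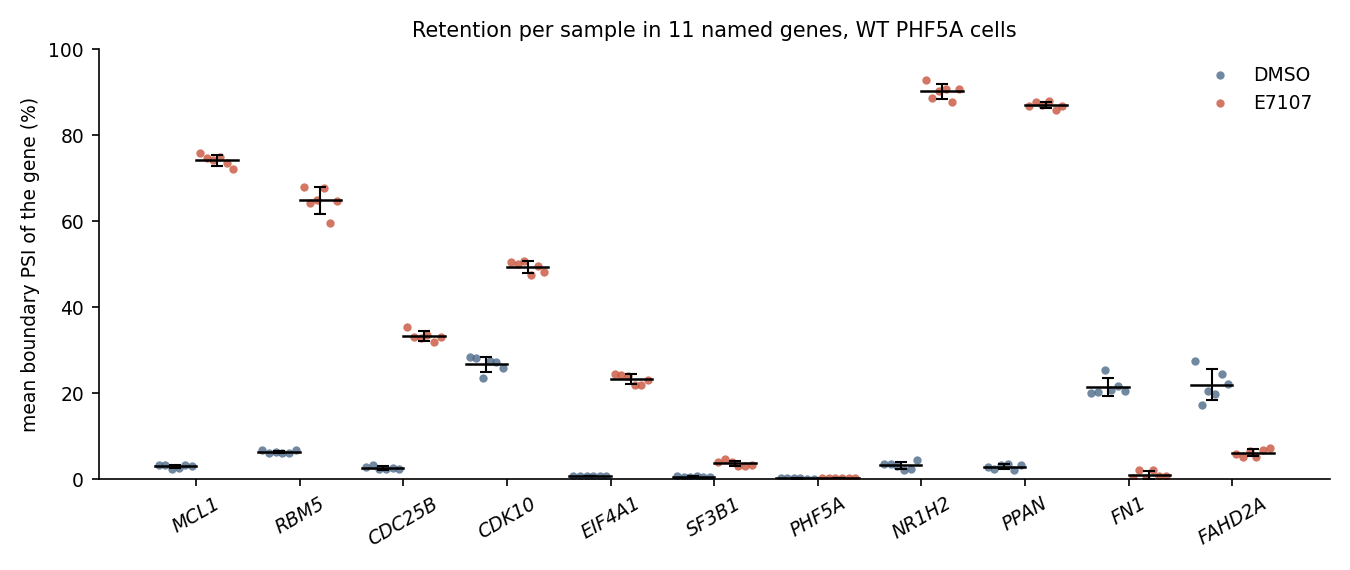
Mean boundary PSI (%) of 11 named genes in each of the 12 samples, with DMSO in blue, E7107 in red, a line at the group mean and bars of 1 SD (n = 6). MCL1, RBM5, NR1H2 and PPAN are far higher in every E7107 sample than in any DMSO sample, PHF5A overlaps between the groups, and FN1 and FAHD2A are lower under E7107.

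To describe genes as a whole, boundary PSI was averaged over the boundaries of reference introns of a gene, with at least 4 boundaries covered in all 12 samples. Of 9319 genes, 6791 were raised (72.9%), 757 lowered (8.12%) and 1771 not called. The median gene went from 2.38% to 9.74%, and the median change was 5.85 points. In 6001 genes (64.4%) every E7107 sample lay above every DMSO sample, and in 365 (3.92%) every one lay below. The size varied widely: 2344 genes (25.2%) gained 20 points or more and 559 (6.00%) gained 50 or more, whereas 2431 (26.1%) changed by less than 1 point or fell.

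Among genes with at least 10 boundaries, the largest rise was in NR1H2, the liver X receptor beta, from between 2.24% and 4.51% (median 3.37%) to between 87.8% and 92.8% (median 90.5%). PPAN, a ribosome biogenesis factor, rose from between 2.22% and 3.48% (median 3.11%) to between 85.9% and 88.0% (median 86.8%), and all 11 of its introns were raised. All 6 measured introns of NR1H2 were raised as well, and in both genes the groups were far apart. PIM3, a serine/threonine kinase, POLR1C, a subunit shared by RNA polymerases I and III, and TBC1D10B, a GTPase-activating protein for Rab, rose by 84.0, 82.5 and 81.4 points. KDM6B, a histone H3 lysine demethylase, NR4A1, an early-response nuclear receptor, and UBE2O, a ubiquitin-conjugating enzyme, rose by 80.9, 79.3 and 79.3 points (limma, adjusted p between 4.0e-15 and 1.3e-12 for these 8 genes).

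Among the same genes, the largest fall was in FN1, which encodes fibronectin, from between 20.2% and 25.4% (median 20.7%) to between 0.260% and 2.22% (median 0.833%). Only 22 of the 45 introns of FN1 had reads at both boundaries in all 12 samples. FAHD2A fell from between 17.3% and 27.5% (median 21.4%) to between 5.24% and 7.22% (median 6.27%), and the groups did not overlap in either gene. PPOX, an enzyme of haem synthesis, DPAGT1, the first enzyme of N-glycan assembly, and SRR, serine racemase, fell by 13.0, 12.8 and 13.4 points. AFMID, CD164L2 and LRRC51 fell by 17.5, 16.3 and 14.9 points (limma, adjusted p between 6.0e-09 and 2.2e-04 for these 8 genes). In the Y36C samples of the series all 8 changed upward under E7107, from 2.49 points in CD164L2 to 23.4 in FN1. These Y36C values are over boundaries covered in all 24 samples. Over all 757 lowered genes the median fall was from 4.45% to 2.04%, and 151 fell by 5 points or more.

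Genes that already retained introns were raised in a smaller share, though their median change was larger than in genes with a DMSO level under 1%. Retention was raised in 84.6% of 1776 genes with a DMSO level under 1%, in 63.3% of 1357 genes between 5% and 10%, and in 57.1% of 238 genes at 20% or more. The median change over all genes of these classes, called or not, was 3.45, 8.10 and 11.35 points. It did not climb at every step, with 7.60 points between 10% and 20%. The DMSO level is part of the change itself, so this is a description. Among the genes at 20% or more, 36 of 238 were lowered.

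Gene lists differed in the size of the change, and the plot of gene lists shows their members. In bulk RNA, fewer cells of a kind and less RNA per cell cannot be told apart. Splicing kinases stood highest, with 8 of 8 raised and a median change of 35.99 points, compared with 5.85 points over all genes. The CDC-like kinases, which phosphorylate SR proteins, led them: CLK1 rose by 72.05 points, CLK3 by 64.8 and CLK2 by 57.6, and SRPK1 by 5.20. Zinc finger genes of the ZNF series followed, with 142 of 147 raised and a median of 30.4 points, from ZNF185, which was not called at -0.19 points, to ZNF324 at 81.8.

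Regulators of cell death and division had high median changes too, with shares raised that lay on both sides of the 72.9% of all genes. In the BCL2 family 7 of 9 were raised (77.8%) with a median change of 26.7 points, among them MCL1 (71.2 points), the pro-apoptotic effector BAK1 (66.4) and the BH3-only BCL2L11 (53.2), while BID fell by 0.63 points and BAX was not called at 1.38 points. Among cyclins, cyclin-dependent kinases and their phosphatases 36 of 38 were raised with a median of 23.1 points: CCNL2, a cyclin tied to splicing, by 71.0 points, CDK9, the kinase of the elongation factor P-TEFb, by 65.9, and PLK1 by 52.8. CDK4 rose by 1.28 points and CHEK2 fell by 2.35.

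Of caspases and death receptors 13 of 19 were raised (68.4%, median 19.1 points), TNFRSF10B by 54.95, and CASP4 fell by 2.96. Of the RAS and MAP kinase genes 31 of 33 were raised (median 13.8), MAP2K7 by 72.0, and MAP2K2 fell by 0.47. Of the Wnt and beta-catenin genes 23 of 26 were raised (median 19.9), BCL9L by 74.0, with LRP5 not called at -0.27 points.

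Of splicing and RNA-processing genes, the lists had between 77.8% and 100% raised, compared with 72.9% of all genes. All 12 SR proteins rose (median 17.65 points, from TRA2A at 2.28 to SRRM2 at 35.4), all 26 hnRNP genes rose (median 7.16, from HNRNPA2B1 at 0.63 to PTBP2 at 28.7), and all 14 genes of 3' splice site recognition rose (median 13.0, from SUGP1 at 4.83 to CHERP at 68.2). Core spliceosome genes outside the U2 snRNP had 46 of 51 raised (median 4.49, CD2BP2 by 68.6, with LSM7 not called at -1.27), and genes of the minor spliceosome 7 of 9 (median 11.2, SCNM1 by 42.2, with ZMAT5 not called at -0.27). Nonsense-mediated decay and exon junction complex genes had 15 of 16 raised (median 19.4, RNPS1 by 50.4), while UPF3A fell by 2.56, a call that a replicate block removed (limma, adjusted p = 0.10). Cleavage and polyadenylation had 17 of 18 raised (median 6.55, CSTF1 by 81.3, with SYMPK not called at 0.37) and noncoding hosts of small nucleolar RNAs 12 of 14 (median 27.2, SNHG7 by 56.6, while SNHG6 fell by 4.86).

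The smallest median changes were in lists of metabolism and protein turnover. The median change was 0.44 points for respiratory complex I, where 20 of 36 were raised and 5 lowered, and NDUFB1 fell by 1.21 points while NDUFS3 rose by 15.3. It was 0.62 points for glycolysis, where 12 of 17 were raised and 2 lowered: the hexokinase HK2 rose by 38.1 points and the glucose transporter SLC2A1 by 36.5, while ENO2 fell by 4.38. It was 1.42 points for aminoacyl-tRNA synthetases (16 of 20 raised, TARS1 by 9.06, while CARS1 fell by 2.21) and 1.82 for the proteasome (36 of 44, PSMD7 by 50.03, while PSME2 fell by 1.73). Cytosolic ribosomal proteins had 78 of 82 raised, but by a median of 4.23 points, and RPL36A was not called at -0.11.

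The remaining lists had median changes from 3.802 to 13.99 points. Raised genes numbered 58 of 69 mitochondrial ribosomal proteins (median change 5.09 points, MRPL17 by 63.7, while MRPS21 fell by 4.68), 23 of 25 chaperones (3.802, DNAJB1 by 71.6, while HSPE1 fell by 0.55), 34 of 37 translation initiation factors (10.1, EIF4A2 by 59.9, while EIF3K fell by 0.47) and 30 of 33 genes of RNA polymerase II and Mediator (12.9, MED8 by 61.4, while MED24 fell by 0.79). For DNA replication it was 29 of 39 (4.25, CDT1 by 79.2, while GINS4 fell by 3.51), for homologous recombination and Fanconi genes 22 of 27 (7.92, FANCE by 43.7, while FANCL fell by 8.87), for mismatch repair 6 of 7 (8.98, EXO1 by 32.0, while PMS1 fell by 2.12), for the kinetochore and spindle 30 of 35 (13.99, CDCA8 by 69.9, while CENPK fell by 1.12) and for the nuclear pore 24 of 27 (5.70, POM121 by 64.5, while AAAS fell by 1.97). Each of these lists thus held a gene that fell and one that rose by several times the median of the list.

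**Figure D3:**
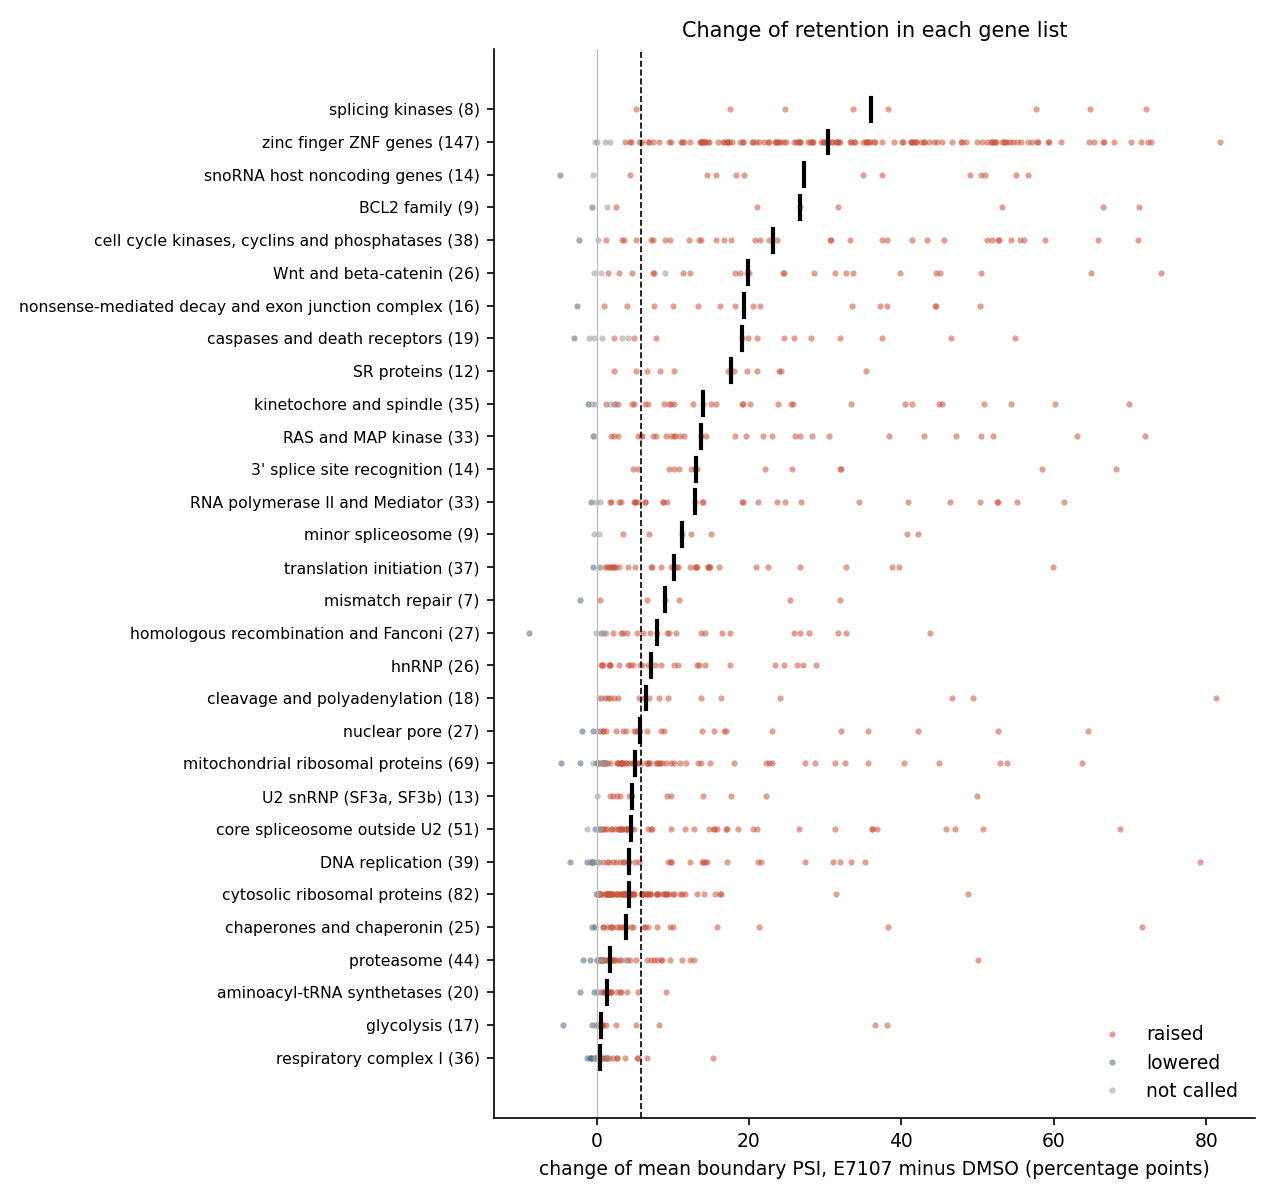
Change of mean boundary PSI (percentage points, E7107 minus DMSO, means of 6 samples) for every tested gene of 30 lists, with raised genes in red, lowered in blue and not called in grey. Black bars are list medians, the dashed line is the median of all 9319 genes (5.85 points) and the number tested is in parentheses. Splicing kinases (35.99 points) and ZNF genes (30.4) lie to the right, and glycolysis (0.62) and respiratory complex I (0.44) near 0.

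Single introns followed their gene to a large extent. Of 93289 reference introns with reads at both boundaries in all 12 samples, 39978 could be tested at both, 28845 were raised at both (30.9% of all measured) and 1375 lowered at both (1.47%). The median change was 4.85 points. At least 50% PSI was reached by 7333 introns (7.86%) under E7107, compared with 591 under DMSO. Differences between genes made up 78.1% of the variance of the intron changes in the 6766 genes with 5 or more measured introns. In 899 of those genes every intron was raised at both boundaries, in 2965 none was, and in 2902 only some were. Introns that could not be tested at both boundaries count as not raised in these numbers, which thus depend on the filter. The changes at the 2 boundaries of an intron differed by under 10 points in 83.8% of introns. With a median change of 4.85 points, most introns changed too little to differ more, so this share says little of introns with large rises.

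The introns selected for a large rise and steady samples were almost fully spliced under DMSO and almost fully retained under E7107. Intron 2 of MAFK, a small Maf transcription factor, went from between 0.794% and 2.28% (median 1.25%) to between 97.0% and 98.5% (median 97.6%). Intron 3 of PPAN went from between 1.48% and 3.21% (median 2.61%) to between 97.4% and 99.6% (median 98.6%). Intron 3 of NR1D1, the clock repressor REV-ERB alpha, 103 bases long with a GC content of 68.9%, went from between 0% and 8.04% (median 1.47%) to between 96.7% and 99.1% (median 98.4%). Its counterpart in print, intron 15 of SF3B1, 96 bases long with 21.9% GC, went from between 0% and 0.304% (median 0.059%) to between 1.14% and 2.44% (median 2.04%), and was called raised at both boundaries as well. The introns of NR1D1 and SF3B1 were each at 0% in a DMSO sample. Their boundaries were therefore tested only because of their E7107 level, and their calls are a description. The introns of ARHGEF5, REXO4, NR1H2 and PER1 rose by 93.7 to 94.1 points.

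Shorter introns were raised in a larger share, and place in the transcript gave different orders by different measures. Introns that could not be tested count as not raised here. By length, 44.3% of 5503 introns of 30 to 99 bases were raised at both boundaries and 11.7% of 8242 introns of 10 kb or more. The median PSI of the shortest class lay between 10.03% and 12.5% in the E7107 samples and that of the longest between 2.86% and 5.29%. By distance from the transcript start, the share was 37.3% under 1 kb, 48.9% from 1 to 5 kb and 13.5% at 100 kb or more. In transcripts of 10 or more introns the median change was 6.11 points over the first 20% of intron positions and 3.93 over the last 20%, and in 3932 of 6762 genes (58.2%) the first intron changed more than the last. The share raised at both boundaries went the other way, with 26.6% over the first 20% of positions and 30.3% over the last, and with 32.1% of first introns and 36.2% of last introns. The 368 introns that are the only one of their transcript had a median of 36% under E7107 and 3.88% under DMSO.

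By GC content, the share raised at both boundaries was 29% under 35% GC, 25.2% at 35 to 40%, and then climbed to 39.8% at 60% or more. The levels had no single direction. Under E7107 the median PSI was 7.32% for introns under 35% GC, 5.72% at 40 to 45% and 11.8% at 60% or more, whereas under DMSO it climbed from 0.479% to 2.82%. The median change was largest at the 2 ends of the scale, 5.98 and 6.05 points, and lowest at 50 to 55% GC (4.03 points). The plot of intron PSI by length, GC content and place gives the spread over samples. By splice site strength the shares lay close together: with introns in 4 classes of 5' splice site score, 30.1% of the weakest and 31.04% of the strongest were raised at both boundaries, and for 3' splice sites 32.9% and 28.1%.

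**Figure D4:**
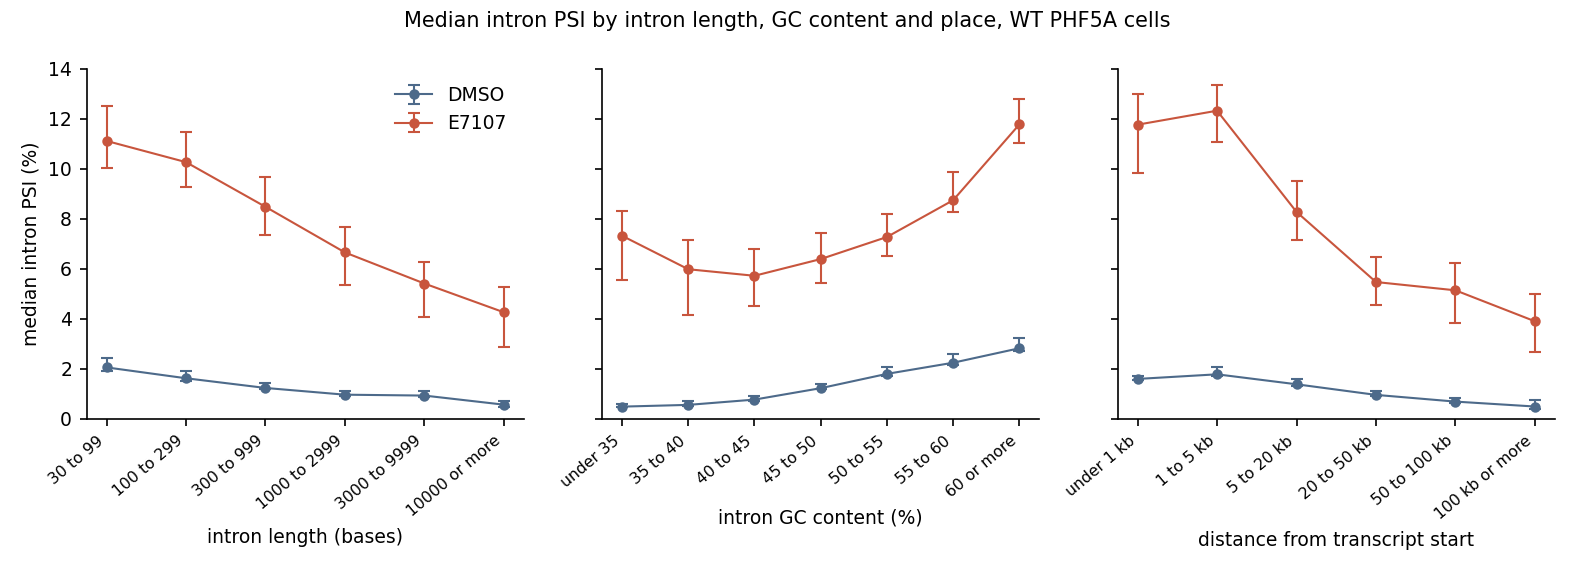
Median PSI (%) of reference introns by length in bases, GC content in percent and distance of the 5' splice site from the transcript start, with DMSO in blue and E7107 in red. Points are the median over the 6 samples of a group and bars run from the lowest to the highest sample. E7107 lies above DMSO in every class, with the highest points for introns of 30 to 99 bases (11.1%), 60% GC or more (11.8%) and 1 to 5 kb from the start (12.3%).

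Letters near the 3' splice site were searched in intron bases 50 to 15 before the exon, on the strand of the gene. The string CTNAC, a core like that of branch points, was present in 20.6% of all introns of 60 bases or more, in 22.1% of those raised at both boundaries, in 22.7% of those that gained 50 points or more and in 21.5% of those that changed by less than 1 point or fell. These shares lie close together, and a match of letters is not a branch point. Introns that start with GT or AT followed by ATCCTT, the start typical of the minor, U12-type class, made up 0.391% of introns. Of these 365, 110 (30.1%) were raised at both boundaries, close to the 30.9% of all introns. They changed less than the median of the other introns of their own gene in 177 of 346 genes. Intron 7 of GNL3, a nucleolar GTPase, is one of them, and its 5' splice site is shown with 6 exon bases and GT in capitals.
GNL3 intron 7 5' splice site, chr3:52724715-52724734, plus strand: accaagGTatcctttattag
It went from between 7.68% and 10.1% (median 8.93%) to between 76.1% and 79.3% (median 76.6%).

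Some of the largest skipping events had no counterpart in the DMSO samples. PRCC, known from gene fusions in papillary renal carcinoma, skipped exon 4 at 6.10% to 9.62% (median 8.46%) under DMSO and 69.1% to 76.1% (median 70.7%) under E7107. That exon is 96 bases long, a multiple of 3. FOSL1, the AP-1 protein FRA1, lost exons 2 and 3 together in 54.2% to 59.2% (median 58.5%) compared with 0.739% to 3.91% (median 2.91%).

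TSPAN5, a tetraspanin, lost exons 2 to 5 in 48.8% to 54.5% (median 52.8%) and THBS1, thrombospondin 1, exon 20 in 46.4% to 52.9% (median 50.3%), and both junctions were listed at 0 in all 6 DMSO samples. FRS2, an adaptor of fibroblast growth factor receptors, MED13, a subunit of the Mediator kinase module, and DNTTIP2 rose by 51.7, 48.3 and 47.3 points. In these 7 genes and in MCL1 the groups were apart in every sample. PRCC, FOSL1 and MCL1 had a PSI over 0 in every DMSO sample (limma, adjusted p between 1.3e-09 and 9.1e-09). The other 5 junctions were tested only because of their E7107 level, so their values are a description.

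**Figure D5:**
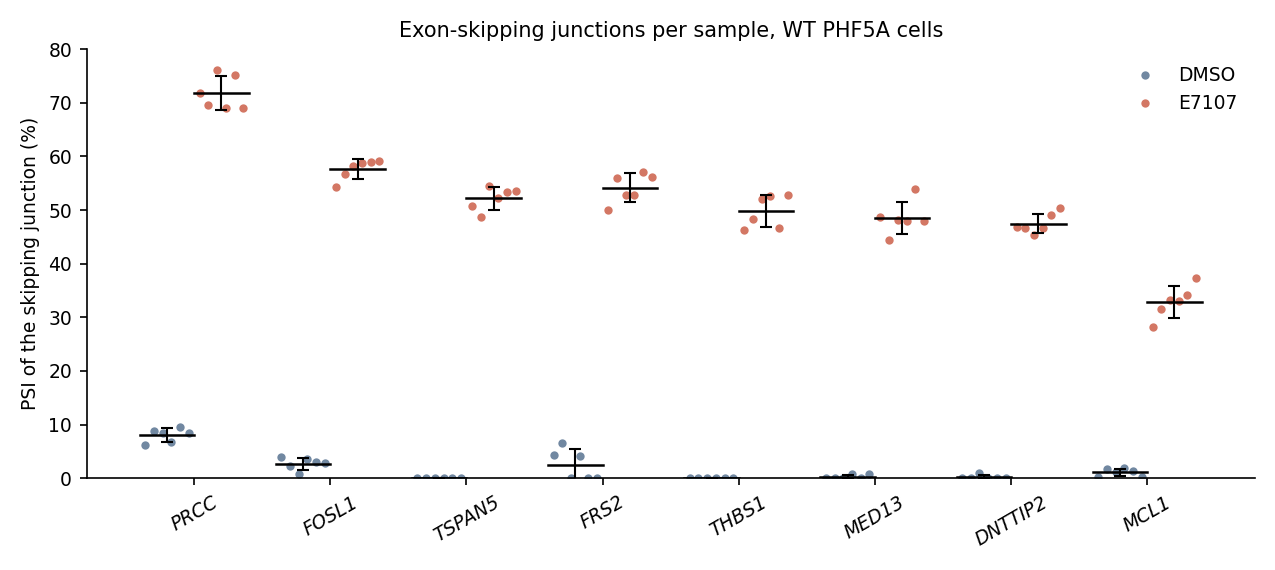
PSI (%) of the exon-skipping junction in 8 genes in each of the 12 samples, with DMSO in blue, E7107 in red, a line at the group mean and bars of 1 SD (n = 6). PRCC has the highest level under E7107 (median 70.7%), and TSPAN5 and THBS1 are at 0 in every DMSO sample.

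The exons that were skipped more lay in a setting of lower GC. Single exons with raised skipping had a median GC of 45.9% and flanking introns of 41.1%, and those with lowered skipping 52.3% and 46.8%. The difference between intron and exon was -4.27 points in the former and -3.82 in the latter, with broad overlap (quartiles of -9.17 to 0.675 and -8.63 to 1.39). For introns, the same difference from the exons on either side was -3.74 points where both boundaries were raised and -3.95 where the change was under 1 point.

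Few alternative sites rose, 31 of the 3' and 26 of the 5' kind by 10 points or more, and 4 of the latter by 50 or more. Among those with an SD under 5 points in both groups, the largest rise of an alternative 3' site was in RSRC2, an arginine/serine-rich protein, 22 bases from the reference site, from between 0% and 2.22% (median 0.596%) to between 15.4% and 24.1% (median 19.4%). Those in THBS1, OGFR and ZNF410 rose by 17.5, 11.2 and 8.93 points. For alternative 5' sites under the same limit it was in CSNK2A2, a catalytic subunit of casein kinase 2, 56 bases from the reference site, which was listed at 0 in all DMSO samples and lay between 7.35% and 15.4% (median 9.37%) under E7107. R3HCC1, THAP12, SLC20A1 and PAFAH1B1 rose by 9.37, 9.31, 7.09 and 6.77 points. Apart from the site in ZNF410, every alternative site named here was at 0 in some DMSO sample. Those sites were tested only because of their E7107 level, so their values are a description.

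Beside the percentages, fewer splice sites were covered after treatment. Sites with any read numbered between 338112 and 340662 (median 338531.5) in the DMSO samples and between 281734 and 284117 (median 283313.5) in the E7107 samples, without overlap, a fall of 16.5% (exact permutation test, p = 0.002165, n = 6 per group). At sites of reference introns the fall was 8.85%. Of 237124 reference sites with reads in all DMSO samples, 83.9% had reads in all E7107 samples. That share was 83.5% for sites under 1 kb from the transcript start, highest at 5 to 20 kb (87.8%), and 74.2% at 100 kb or more. The files hold no read totals, so the part of sequencing depth in this was not tested, and PSI at thinly covered sites has an unknown error.

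With the 12 matching samples of the Y36C mutant of PHF5A, the interaction of genotype and treatment was tested over all 24 samples (limma, adjusted p of 0.05 or less). The change in log odds was lower in Y36C than in WT cells in 5694 of 9212 genes (61.8%) and higher in 1319 (14.3%). The 1319 are not all larger rises. Among them, FN1 changed by -20.4 points in WT and 23.4 in Y36C cells, and NDUFB1 by -1.21 and -0.016. The median change was 5.94 points in WT and 0.902 in Y36C cells, and 2331 genes gained 20 points or more in WT cells compared with 13. MCL1 changed by 71.2 points in WT and 1.87 in Y36C cells (adjusted p = 7.2e-18 for the difference). For the genes named here the WT change is over boundaries covered in the 12 WT samples. The Y36C change and the test are over boundaries covered in all 24 samples.

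The RNA matched the labelled cell type, by its markers, for the most part. EPCAM, CDH1, KRT8, KRT18 and KRT19 had reads at all their splice sites in every sample, and KRT20, CDX2 and ELF3 in at least 1 sample of each group, while VIL1, CEACAM5 and LGR5 had reads at 1 site or none. Of the fibroblast, leukocyte and endothelial markers, COL1A1 and CD68 had reads at most or all of their sites in both groups. The others were at 10.3% of their sites or fewer, and PECAM1 was not matched. COL1A1 was raised by 9.11 points and CD68, at -3.38 points, was not called. Of 6 epithelial markers tested, 5 were raised, ELF3 by 58.9 points, with CDH1 not called at 0.22.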

How the data were processed

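RNA-seq of polyadenylated RNA from WT PHF5A-overexpressing HCT116 cells was analysed in 6 E7107 and 6 DMSO samples, grouped by their titles. Per the methods and the submitters' notes, reads were aligned to hg19 with STAR, and the authors deposited PSI in percent for each junction at each of its splice sites, calculated from junction counts. The files give no counts, so no interval can be given for a single PSI. Mitochondrial and strandless rows (6433) were dropped. Junctions were typed with GENCODE release 44 lifted to GRCh37, by the canonical transcript of each gene. Of its introns, 98.6% had GT and AG at their ends. Whether counting used strand is not given in the sources used here, so reads of overlapping genes cannot be told apart.

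The natural-log odds of PSI, with 1 point added to both parts, were tested by limma 3.58.1 in R 4.3.3 over 352424 rows with Benjamini-Hochberg adjustment. A junction was called from the better of its ends. Genes were fitted alike on their mean boundary PSI. Single values were compared by exact permutation of 924 splits. The limma script was first tested on simulated data. Named genes and introns are from those the study names, the extremes among genes with at least 10 boundaries, the highest and lowest members of the gene lists, and the junctions and introns with the largest rise and an SD under 5 points, at most 1 per gene. The highest U12-type intron, intron 15 of SF3B1 and the other list members named were added after their values were seen. Some genes and 1 list under these rules are not reported here. Members, lists, offset and filter were chosen with earlier results of these data known. Alternatives were a replicate block, PSI itself as the response, an offset of 0.1, a minimum change of 10 points, a minimum mean PSI of 5%, calls at every tested end, at least 10 boundaries, rows covered in all 24 samples, medians over rows, annotated sites only and, chosen after seeing the data, leaving out DMSO replicate 1.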

Additional observations from a re-analysis of the deposited data

Results flagged for a closer look

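One DMSO library, replicate 1, lay far from the other 5 in several means. Its mean boundary PSI was 6.75% with the others between 6.37% and 6.42%, and its mean reference junction PSI was 92.6% with the others between 92.9% and 93.0%. It was at 4.05% against 3.69% to 3.77% at 5' boundaries of reference introns, at 4.61% against 4.23% to 4.27% at 3' boundaries, and at 2.51% against 2.27% to 2.31% in the median over genes. These means share most of their reads. In each the library still lay far from every E7107 sample, and without this library the difference in mean boundary PSI was 11.9 points.

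Of 244 groups of 6 samples checked, 18 held a sample far from its nearest neighbour, the 5 means above among them, and chance gives this in about 5% of groups. The others among DMSO samples were TBC1D10B at 7.92% in replicate 6, NR4A1 at 8.47% in replicate 5, FN1 at 25.4% in replicate 3, CARS1 at 4.76% and HNRNPA2B1 at 1.60% in replicate 1, and the skipping junction of DNTTIP2 at 0.966% in replicate 3 with the others at 0. Among E7107 samples, DPAGT1 was at 8.77% and HK2 at 40.7% in replicate 1, NDUFB1 at 1.45% in replicate 2, intron 8 of ARHGEF5 at 87.8% in replicate 5 with the others at 100%, and intron 7 of GNL3 at 79.3% in replicate 5. The alternative 5' site of THAP12 stood at 13.0% in replicate 1, and the alternative 5' site of CSNK2A2 at 15.4% in replicate 5.

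The response differed between WT and Y36C PHF5A cells by the interaction test in 5694 genes with a lower and 1319 with a higher change in log odds in Y36C. Among genes the study names, the change in Y36C cells was 1.87 points for MCL1, 5.80 for CDC25B, 7.46 for RBM5, 7.66 for CDK10, 0.035 for EIF4A1 and -0.099 for SF3B1.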

How the results depend on the processing

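Of the recomputed counts and means, 64 kept their direction and, for counts, stayed within 1.5 times the reported value. Requiring a change of 10 points or more left 57979 junctions and boundaries raised and 42759 lowered, 2439 boundaries lowered, 1558 exon-skipping junctions raised and 31 alternative 3' and 26 alternative 5' site junctions raised. A minimum mean PSI of 5% in a group left 2491, 45 and 53 of the last 3 kinds, and calls at every tested end left 54 alternative 5' site junctions. These settings keep fewer junctions by construction. The median of exon-skipping rows was 0 in both groups, so the difference was 0 by that summary (exact permutation p = 1). Same-numbered samples did not deviate together (correlations from -0.00173 to 0.00585), so the numbers do not pair the samples. With the replicate block 85832 junctions and boundaries were raised and 64252 lowered, 6747 genes were raised and 738 lowered, and the exact sign-flip test of the means gave p = 0.03125, the smallest it allows. The block ended the call of UPF3A (adjusted p = 0.10) and no other call among the named genes. Without DMSO replicate 1 (an alternative chosen after seeing the data) 87083 junctions and boundaries were raised and 63834 lowered. Among named genes 175 recomputed values kept their direction and call, and no recomputed value of any kind changed direction. Depth limits the results in that only the number of covered sites is known, and introns and genes without reads in all 12 samples were not analysed here.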
